A study of Mus musculus with 8 samples.

Results

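Hepatic glucose production and glycolysis genes are described here through 9 genes picked by name: Gckr, Slc2a2, G6pc, Pck1, Fbp1, Pcx, Pklr, Khk and Mlxipl. All 9 were among the 41388 features counted in liver RNA sequencing, and all 9 passed the filter on low counts that left 12270 genes for testing. The rule that named them used no measured value, but they were chosen with earlier results of these data known. The livers came from db/db mice, which lack a working leptin receptor and become obese and diabetic, on a strain labelled C57B/6J. Littermates were randomised at 5 weeks of age to tail vein injection of an adenovirus for green fluorescent protein (AdGFP, 4 mice) or for nicotinamide phosphoribosyltransferase (AdNAMPT, 4 mice). They were 10 weeks old at sampling, and the series text gives 4 to 5 weeks of overexpression. The paper itself gives shorter intervals after adenovirus delivery, and which applies to these livers was not settled. The genotype label of the AdGFP mice reads control, so db/db status rests on the sample titles and the study, and no mice with a working leptin receptor were part of the comparison.

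The liver both makes and uses glucose. In gluconeogenesis, pyruvate is carboxylated by pyruvate carboxylase (Pcx), converted to phosphoenolpyruvate by the cytosolic carboxykinase (Pck1), carried past fructose 1,6-bisphosphate by fructose bisphosphatase (Fbp1) and released as glucose by glucose 6-phosphatase (G6pc), with the transporter GLUT2 (Slc2a2) in the cell membrane. In the opposite direction, Gckr encodes a regulatory protein of early glycolysis, and the liver pyruvate kinase (Pklr) ends the pathway. Ketohexokinase (Khk) phosphorylates fructose, and ChREBP (Mlxipl) is a sugar-responsive transcription factor known to bind the Pklr promoter. Insulin is known to lower Pck1 and G6pc, and fasting to raise them.

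Promoter sequences are shown for Pck1 and Pklr, textbook targets of hormones and of sugar, and for Khk and Mlxipl, whose windows hold an E-box nearer to the start than that of Pcx. RefSeq promoters (GRCm38.p6) were found for all 9 genes, and the 250 bases before each start were searched on both strands. Capitals mark the match, each stretch is 80 bases on the plus strand, which is also the strand of the gene, and all coordinates are GRCm38.p6.
Pck1, chr2:173152944-173153023, cyclic AMP response element variant TTACGTCA: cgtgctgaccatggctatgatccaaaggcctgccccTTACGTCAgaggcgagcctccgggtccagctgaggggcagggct
Pklr, chr3:89136421-89136500, carbohydrate response element: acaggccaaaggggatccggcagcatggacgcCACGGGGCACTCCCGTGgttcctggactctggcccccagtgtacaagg
Khk, chr5:30921451-30921530, E-box CACGTG: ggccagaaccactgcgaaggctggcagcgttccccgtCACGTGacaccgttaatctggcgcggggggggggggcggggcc
Mlxipl, chr5:135089755-135089834, E-box CACGTG: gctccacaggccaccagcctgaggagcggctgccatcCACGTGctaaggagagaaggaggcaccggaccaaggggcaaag

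The Pck1 match lay 93 to 86 bases before its start, and 0.447% of 32851 promoters held these letters. The Pklr match lay 170 to 154 bases before the downstream of its annotated starts. The carbohydrate response element was searched as a 17-base pattern in which CACGNG and CNCGTG lie 5 bases apart, and 13 promoters (0.0396%) held it. The E-box, present in 6.02% of promoters, was found in Khk and, at the upstream of their annotated starts, in Mlxipl and Pcx. In Pcx it lay 248 to 243 bases before that start. None of the printed matches overlapped one another. The palindromic cyclic AMP response element TGACGTCA (1.55% of promoters), the FOXO element TTGTTTAC (1.07%) and the insulin response sequence CAAAACAA (2.21%) were in no window of the 9 genes, which says only that these letters are not there.

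Libraries held 12006713 to 19879814 counts, and a member was never below 723 or above 71014 counts in a library, so no member had few reads. Counting error was not separated from the spread between mice. Nampt itself was at 102.3 to 152.7 CPM in AdGFP and 120.5 to 177.8 CPM in AdNAMPT, overlapping ranges. CPM are counts scaled to the library's total, as deposited. The log2 fold change of Nampt, AdNAMPT over AdGFP, was 0.08 (SE 0.15, limma adjusted p 0.915). The name AdNAMPT therefore stands for the label of a library, on which each direction given depends. Hepatocyte markers were abundant in both groups, with a summed level of 92759 to 118142 CPM in AdGFP and 92481 to 117076 CPM in AdNAMPT over the 7 markers matched. AdNAMPT replicate 1 stood apart, with the lowest sample weight in the fit (0.440, against 0.811 to 1.41 for the others), and some results are also given without it. In bulk liver, fewer cells of a type and less RNA per cell cannot be told apart. Reads of Gm42418, a feature that overlaps ribosomal RNA, made up 0.996% to 2.25% of AdGFP and 0.200% to 0.233% of AdNAMPT libraries, and the part of this difference in the values below was not tested.

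To ask whether AdNAMPT livers differed in glucose production or glycolysis at the transcript level, each gene was compared between groups in 1 limma fit across all genes. None of the 9 genes passed the threshold of an adjusted p of 0.05 by limma, a threshold that 0.277% of all tested genes passed, nor did any with edgeR's tests or DESeq2. At an unadjusted p under 0.05 stood 2 of the 9, Pck1 with a lower and Pcx with a higher estimate, where 9.69% of all tested genes did so. No member had groups that did not overlap, against 4.79% of all genes, on the scale of log2 CPM with TMM factors (edgeR's correction for library composition). These factors were 0.947 to 0.977 in AdGFP and 1.01 to 1.05 in AdNAMPT, without overlap. TMM scaling therefore lowers every AdNAMPT library and raises every AdGFP library relative to deposited CPM. The log2 fold changes of AdNAMPT over AdGFP were above 0 for 4 genes and below 0 for 5, with a median of -0.01, beside a median of 0.00 over all tested genes.

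**Figure D1:**
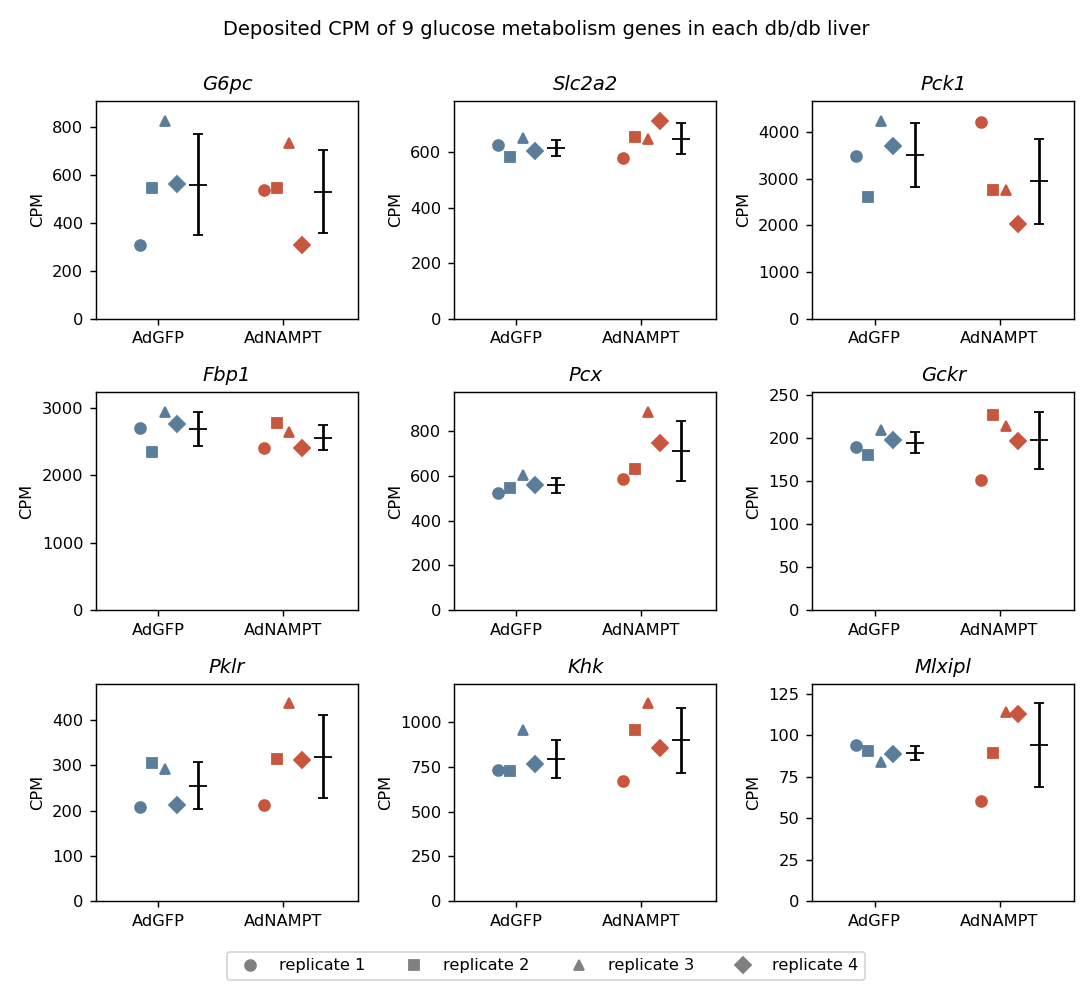
Deposited CPM of each of the 9 genes (y axes from 0) in the 4 AdGFP and 4 AdNAMPT livers, with the marker shape giving the replicate number and the black bar the mean ± SD of the 4 mice. The groups overlap for every gene, G6pc spreads from 306.9 to 827.8 CPM within AdGFP, and in Pck1 AdNAMPT replicate 1 lies apart from the other 3 AdNAMPT mice.

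Pck1, the cytosolic phosphoenolpyruvate carboxykinase that commits carbon to gluconeogenesis (ENSMUSG00000027513, chromosome 2, 173153048 to 173159273, GRCm38), had the smallest p of the 9. In order of replicate number, the AdGFP mice had 3479, 2608, 4242 and 3694 CPM, and the AdNAMPT mice had 4212, 2766, 2755 and 2033 CPM. AdNAMPT replicate 1 was near the top of the AdGFP range and replicate 4 was the lowest of all 8 livers, while AdGFP replicate 2 was below AdNAMPT replicates 2 and 3. With TMM scaling, 3 of 4 AdNAMPT mice were below the lowest AdGFP mouse. Group means of Pck1 were 3506 ± 679 CPM for AdGFP against 2941 ± 914 CPM for AdNAMPT (SD, n = 4). The estimate was a log2 fold change of -0.49 (SE 0.17), a fold of 0.713 with a 95% confidence interval of 0.552 to 0.922, with limma's unadjusted p 0.0145 and adjusted p 0.425. That placed it 417th by p among all tested genes. An exact permutation test of the unweighted values over 70 assignments gave p = 0.20, where 0.0286 is the smallest p that 4 against 4 allows. The fit gave AdNAMPT replicate 1 a low weight, and without sample weights the estimate was -0.37 with an unadjusted p of 0.0941. Without AdNAMPT replicate 1 it was -0.61, with an unadjusted p of 0.00198 and an adjusted p of 0.192.

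G6pc, the catalytic subunit of glucose 6-phosphatase (ENSMUSG00000078650, chromosome 11, 101367561 to 101377903), was the most variable member from mouse to mouse. It was at 306.9, 545.5, 827.8 and 562.3 CPM in AdGFP and at 536.4, 545.7, 733.1 and 308.0 CPM in AdNAMPT. Each group held 1 mouse near 307 CPM and 1 at 733.1 CPM or more, and 4 of the 8 livers lay between 536.4 and 562.3 CPM. Its within-group SD of log2 CPM was 0.548, higher than in 95% of tested genes, where the median gene had 0.178. The fit put the log2 fold change at -0.13 (SE 0.31, limma adjusted p 0.928), and the interval for the fold ran from 0.571 to 1.45. Leaving out AdGFP replicate 1 moved it to -0.41, leaving out AdGFP replicate 3 to 0.07 and leaving out AdNAMPT replicate 4 to 0.05, so its sign depended on the mice used.

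Slc2a2, the low-affinity glucose transporter of the hepatocyte membrane (ENSMUSG00000027690, chromosome 3, 28697903 to 28728356), was the steadiest member. It was at 626.3, 583.0, 650.8 and 602.8 CPM in AdGFP and at 577.8, 655.9, 648.0 and 714.0 CPM in AdNAMPT. AdNAMPT replicate 4 was the highest and AdNAMPT replicate 1 the lowest, so that the AdNAMPT range enclosed the AdGFP range. The highest liver was 1.24 times the lowest. By limma, the groups differed by -0.01 (log2, SE 0.08, adjusted p 0.991), with an interval for the fold of 0.883 to 1.12.

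Fbp1, fructose bisphosphatase (ENSMUSG00000069805, chromosome 13, 62864753 to 62888282, minus strand), was nearly as steady. It was at 2705, 2338, 2938 and 2763 CPM in AdGFP and at 2404, 2773, 2638 and 2407 CPM in AdNAMPT. The lowest liver was AdGFP replicate 2 and the highest AdGFP replicate 3, so all 4 AdNAMPT mice fell inside the AdGFP range of deposited CPM. With TMM scaling, 4 of 4 AdNAMPT mice were below the AdGFP mean and 2 below its lowest mouse. The difference was -0.16 on the log2 scale (SE 0.09, limma unadjusted p 0.114, adjusted p 0.632), and the exact permutation p was 0.0857.

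Pcx, the mitochondrial pyruvate carboxylase that feeds both gluconeogenesis and the citric acid cycle (ENSMUSG00000024892, chromosome 19, 4510472 to 4621752), was the other member with an unadjusted p under 0.05. It was at 523.3, 545.9, 602.9 and 560.8 CPM in AdGFP and at 586.4, 628.4, 885.3 and 746.9 CPM in AdNAMPT. The AdGFP mice lay close together, AdNAMPT replicates 3 and 4 were well above them, and AdNAMPT replicate 1 was below the highest AdGFP mouse. Pcx averaged 558.2 ± 33.5 CPM in the first group and 712 ± 134 CPM in the second (SD, n = 4). That gave a log2 fold change of 0.25 (SE 0.11), a fold of 1.19 with a 95% confidence interval of 1.0 to 1.4, with limma's unadjusted p 0.0449 and adjusted p 0.507, and the exact permutation p was 0.20. The estimate was 0.33 without AdNAMPT replicate 1, 0.39 without replicate 2, 0.12 without replicate 3 and 0.16 without replicate 4. None of these passed the adjusted threshold. With library size as the only scaling it was 0.33 (unadjusted p 0.0142), and that scaling moved the median of all genes to 0.09.

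**Figure D2:**
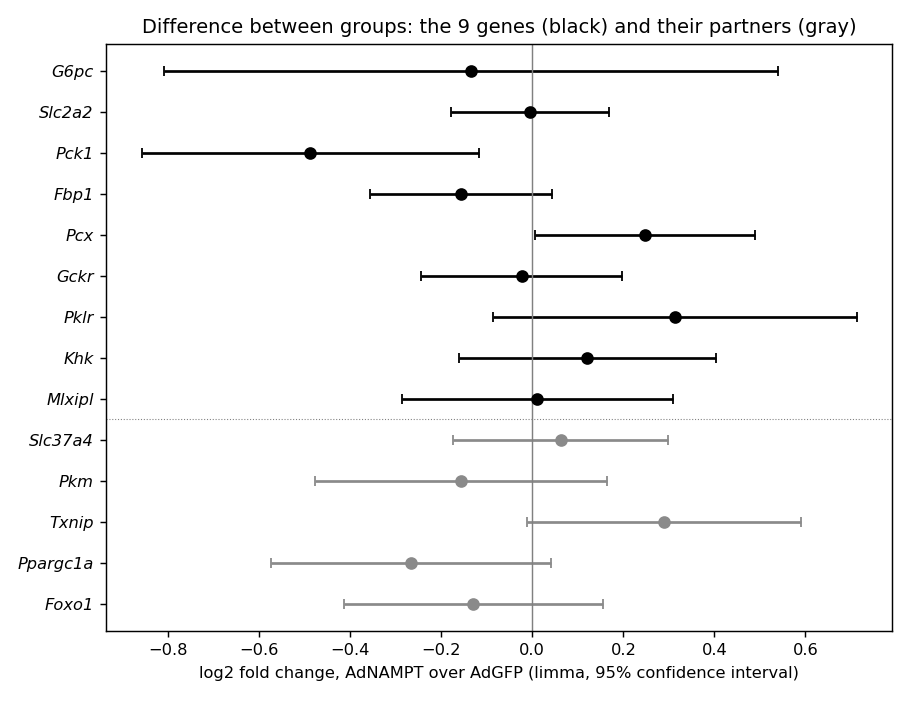
Log2 fold changes of AdNAMPT over AdGFP (x axis) with 95% confidence intervals from limma, for the 9 genes in black and for 5 partner genes in gray, n = 4 mice per group. The intervals of Pck1 and Pcx leave out 0, and the adjusted p over all tested genes was 0.425 and 0.507 for these.

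On the glycolytic side, Gckr, the regulatory protein (ENSMUSG00000059434, chromosome 5, 31297581 to 31327300), was at 189.5, 180.5, 209.2 and 198.3 CPM in AdGFP and at 150.9, 226.6, 214.2 and 197.1 CPM in AdNAMPT. AdNAMPT held both the lowest and the highest liver. The groups differed by -0.02 (log2, SE 0.10, limma adjusted p 0.966), with an interval for the fold of 0.844 to 1.15.

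Pklr, the pyruvate kinase of liver and red cells (ENSMUSG00000041237, chromosome 3, 89136142 to 89146784), was at 208.8, 306.3, 292.3 and 211.6 CPM in AdGFP and at 212.0, 314.9, 436.8 and 312.4 CPM in AdNAMPT. Both groups held mice near 210 CPM, and AdNAMPT replicate 3 was the highest. Its log2 fold change was 0.31 (SE 0.18, limma unadjusted p 0.112, adjusted p 0.631), a fold of 1.24 with an interval of 0.942 to 1.64, and the exact permutation p was 0.60. Leaving out AdNAMPT replicate 1 gave 0.43 with an unadjusted p of 0.0261 and an adjusted p of 0.416, and leaving out AdNAMPT replicate 3 gave 0.20. RefSeq lists starts 481 bases apart, at 89136142 and 89136623, and counts per gene do not separate their transcripts; the printed element lies before the downstream start. The red cell form of this enzyme comes from the same gene, and the 6 erythroid markers summed to 303.1 to 577.5 CPM in AdGFP and 399.7 to 655.0 CPM in AdNAMPT, with 6 of 6 estimates above 0 and 0 at an unadjusted p under 0.05 by limma. Their part in the Pklr values was not tested. Exons of Pklr share 1232 bases with Hcn3 on the opposite strand, a feature at 29.5 CPM on average, and whether counting used strand is not stated. If it did not, reads in those bases were ambiguous and entered neither gene.

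Khk, the ketohexokinase that starts fructose breakdown (ENSMUSG00000029162, chromosome 5, 30921556 to 30931246), was at 731.6, 725.6, 952.3 and 766.4 CPM in AdGFP and at 672.5, 954.3, 1102 and 855.6 CPM in AdNAMPT. AdGFP replicate 3 reached the level of AdNAMPT replicate 2, and AdNAMPT replicate 1 was the lowest liver. On the log2 scale AdNAMPT exceeded AdGFP by 0.12 (SE 0.13, limma adjusted p 0.812).

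Mlxipl, which encodes ChREBP (ENSMUSG00000005373, chromosome 5, 135106891 to 135138382), was at 94.4, 90.6, 84.0 and 88.6 CPM in AdGFP and at 60.2, 89.5, 113.8 and 112.5 CPM in AdNAMPT. The AdGFP mice were close together, while AdNAMPT held 1 mouse far below them and 2 above them. Their SD was 4.33 CPM in AdGFP against 25.2 CPM in AdNAMPT (n = 4). Averaged, the log2 fold change came to 0.01 (SE 0.14, limma adjusted p 0.988), and without AdNAMPT replicate 1 it was 0.15. ChREBP has a constitutive form and a shorter, sugar-induced form that start from separate first exons. RefSeq lists starts 17001 bases apart, and the counted feature begins at the downstream one, so these counts do not separate the forms and leave out exons that lie upstream of the feature.

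**Figure D3:**
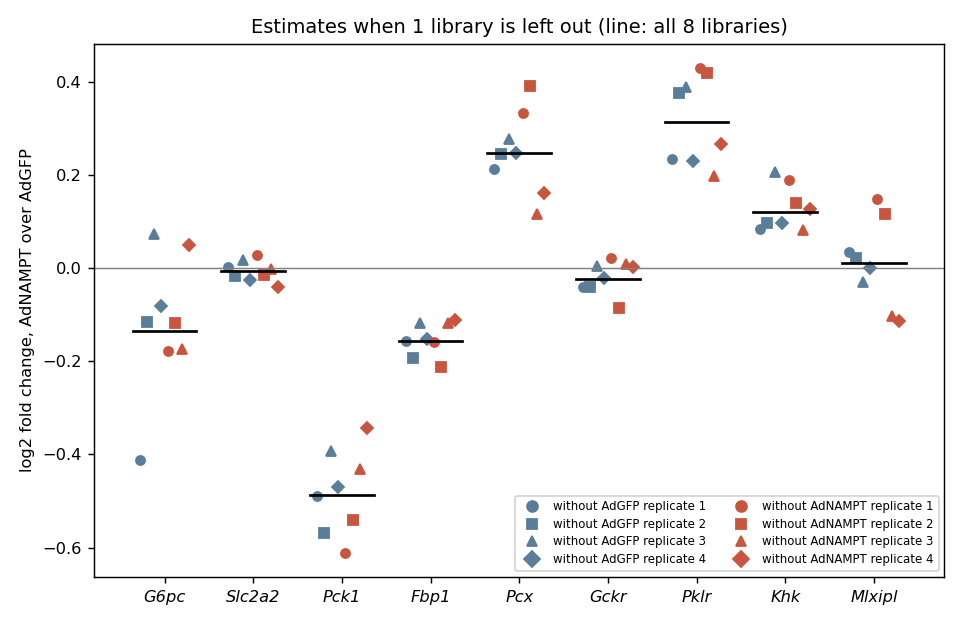
Log2 fold change of each of the 9 genes (y axis) when 1 of the 8 libraries was left out, with color giving the group and shape the replicate number of the library left out, and a black line for the estimate from all 8. The 8 estimates of Pck1 stay below 0, from -0.61 to -0.34, those of Pcx and Pklr stay above 0, and those of G6pc, Slc2a2, Gckr and Mlxipl lie on both sides of 0.

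Levels between genes were compared as RPKM, the deposited reads scaled to library total and to exon length in kilobases. Fbp1 was the most abundant transcript of the 9, with 1540 ± 126 RPKM (SD, n = 8), followed by Pck1 with 940.1 ± 234 RPKM. Khk followed with 506 ± 88.5 RPKM, Slc2a2 with 229.8 ± 16.3 RPKM and G6pc with 226.1 ± 74.9 RPKM. Pcx was at 148.6 ± 28.6 RPKM, Gckr at 97.3 ± 11.5 RPKM, Pklr at 88.7 ± 23.8 RPKM and Mlxipl at 17.1 ± 3.15 RPKM. Within a library, Fbp1 was above Pck1, Pck1 above Khk, Khk above Slc2a2, Pcx above Gckr and Pklr above Mlxipl in 8 of 8 livers. The ranges of Pck1 and Khk over mice overlapped all the same. The neighbours Slc2a2 and G6pc did not differ beyond their spread, with Slc2a2 higher in 3 of 8 livers, and G6pc was above Pcx in 7 of 8 and Gckr above Pklr in 6 of 8. The RPKM of Pklr would be understated if reads shared with Hcn3 were dropped.

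**Figure D4:**
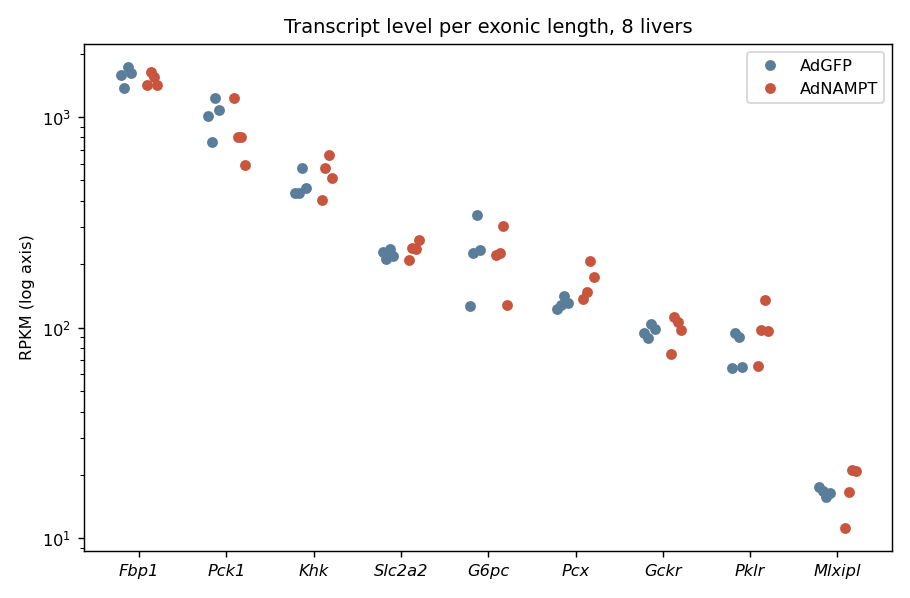
RPKM of the 9 genes on a log axis in the 4 AdGFP and 4 AdNAMPT livers, 1 point per mouse, ordered by the mean of 8. Levels run from 17.1 RPKM for Mlxipl to 1540 RPKM for Fbp1, and the points of Slc2a2 and G6pc share 1 range.

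Variation between mice of 1 group differed widely among the 9. The within-group SD of log2 CPM was 0.375 for Pklr and 0.349 for Pck1, above those of 86.6% and 84.1% of tested genes, and 0.316 for Mlxipl. It was 0.112 for Fbp1 and 0.110 for Slc2a2, above those of 20.1% and 19.1% of tested genes. Over the 36 pairs of members, r ranged from -0.65 to 0.81 across the 8 livers and 26 were positive, but 0 had an adjusted p of 0.05 or less by exact permutation, with 5 at an unadjusted p under 0.05. Pcx and Pklr had Pearson's r = 0.81 (exact permutation p = 0.00809, adjusted 0.144) and Spearman's rho = 0.76 (exact permutation p = 0.0368, adjusted 0.331). It was 0.82 on deviations from the group means and 0.78 without the 2 livers farthest from the median of Pcx. Pklr and Khk had r = 0.81 (exact permutation p = 0.0120, adjusted 0.144) and rho = 0.69 (exact permutation p = 0.0694, adjusted 0.416), with 0.82 on deviations from the group means and 0.64 without the 2 farthest livers. Among the other 12269 tested genes, the 3 whose log2 CPM followed Pck1 most closely over the 8 livers were Prpf4 (r = 0.95), 0610009B22Rik (r = 0.95) and Porcn (r = 0.94), which are the highest values of a search over all genes and share library and depth with it.

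Other genes of glucose metabolism, its regulators, ChREBP partners and targets, and clock genes were read from 8 lists. These held 128 distinct genes, of which 124 were tested. None passed the adjusted threshold by limma, 17 had an unadjusted p under 0.05 by limma (13.7%, beside 9.69% of all tested genes), 9 of these with higher and 8 with lower estimates, and 5 had groups that did not overlap with TMM scaling (4.03%, beside 4.79% of all tested genes). Of the 17, 8 were regulators of gluconeogenesis, 3 clock genes and 2 partners or targets of ChREBP. Each remaining list, of the glucose pathways themselves, held at most 1.

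**Figure D5:**
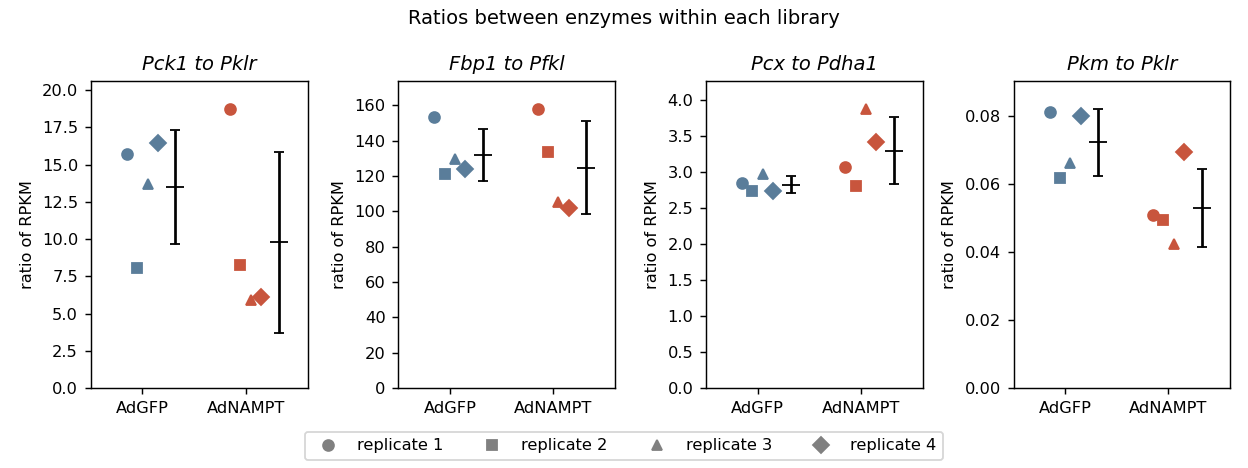
Ratios of RPKM between pairs of enzymes within each library (y axes from 0) in the 4 AdGFP and 4 AdNAMPT livers, with marker shape for the replicate number and black bars for the mean ± SD. The groups overlap in each ratio, and Pck1 to Pklr ranges from 5.95 to 18.7 within AdNAMPT.

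The Pck1 to Pklr ratio, which sets a gluconeogenic against a glycolytic enzyme, was 13.5 ± 3.82 for AdGFP against 9.78 ± 6.07 for AdNAMPT (SD, n = 4; ratios of RPKM). AdNAMPT replicate 1 had the highest ratio of all 8 livers, 18.7, and AdNAMPT replicates 3 and 4 the lowest, 5.95 and 6.14. The AdNAMPT mean was 6.79 without replicate 1. The groups then still overlapped, with 8.29 in AdNAMPT replicate 2 and 8.03 in AdGFP replicate 2. Pcx to Pdha1, the alternative fates of pyruvate, was 2.83 ± 0.113 and 3.29 ± 0.465, and Fbp1 to Pfkl, the opposed enzymes of 1 step, was 132.0 ± 14.7 and 124.7 ± 26.4. Pkm, the pyruvate kinase of most other cells, was at 0.0722 ± 0.00978 of Pklr in AdGFP and 0.0530 ± 0.0115 in AdNAMPT. These 4 ratios overlapped between groups.

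Of 17 other genes of glucose release and gluconeogenesis, 1 had an unadjusted p under 0.05, with a median log2 fold change of -0.08. That gene was alanine aminotransferase Gpt, at 540.6 CPM on average in AdGFP and 498.2 CPM in AdNAMPT (log2 fold change -0.22, SE 0.09, limma adjusted p 0.487). Slc37a4, the transporter that brings glucose 6-phosphate to G6pc, was at 0.06 on the log2 scale (SE 0.11), and Mdh1, the most abundant of the list per length, -0.08 (SE 0.08). Among 20 other glycolytic genes 1 was under 0.05 and the median was 0.00. Pkm was not that gene, at -0.16 (SE 0.15, limma unadjusted p 0.305). Of 7 tested genes of the fructose and polyol pathway, only the low Akr1b3, at 1.26 and 0.990 CPM, had an unadjusted p under 0.05 (log2 fold change -0.67, SE 0.29), and the median was -0.03.

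Among 12 tested genes of pyruvate transport and dehydrogenase, Dlat, the dihydrolipoyl acetyltransferase of the complex, was the 1 gene under 0.05 (log2 fold change 0.32, SE 0.13, limma adjusted p 0.492), with Pdhb at 0.06 (SE 0.08). No glycogen gene of 17 was under 0.05, the smallest p being that of the kinase subunit Phkg2 (log2 fold change -0.30, SE 0.14, limma unadjusted p 0.0633), and Ugp2 was at -0.15 (SE 0.12).

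Of 12 tested partners and targets of ChREBP, 10 had estimates above 0 and 2 below. Their median was 0.30 beside 0.00 for all genes, and 2 had an unadjusted p under 0.05, beside 9.69% of all tested genes. The median was 0.17 without AdGFP replicate 1, 0.64 without AdNAMPT replicate 1, 0.50 without AdNAMPT replicate 2, 0.16 without sample weights and 0.15 without the filter on low counts. Rgs16, a regulator of G protein signalling, had the smallest p of this list (log2 fold change 0.79, SE 0.25, limma unadjusted p 0.00849, adjusted p 0.392; 0.40 without AdNAMPT replicate 2), and Klf10 had 0.48 (SE 0.19, unadjusted p 0.0286). Scd1, the stearoyl-CoA desaturase, had 1.29 (SE 0.65) with levels from 1949 to 18115 CPM within AdGFP, and 0.74 without AdGFP replicate 1, 0.75 with edgeR or DESeq2 and 0.78 without sample weights. Txnip, a classical glucose-induced transcript, had 0.29 (SE 0.14, limma unadjusted p 0.0586).

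Of 28 regulators of gluconeogenesis, 8 had an unadjusted p under 0.05, beside 9.69% of all tested genes. Of these 8, 3 had higher and 5 had lower estimates, and the median of the 28 was -0.08. Onecut1 and Foxa2, transcription factors of the liver, had 0.92 (SE 0.29) and 0.47 (SE 0.13), with limma adjusted p 0.385 and 0.338; Onecut1 was low, at 4.50 and 12.4 CPM on average, and passed the adjusted threshold with edgeR's exact test and with DESeq2. Tat, tyrosine aminotransferase, a glucocorticoid-responsive gene, was at 1565, 1738, 2509 and 2117 CPM in AdGFP and 1510, 1358, 1749 and 1210 CPM in AdNAMPT (log2 fold change -0.56, SE 0.15, limma unadjusted p 0.00383, adjusted p 0.318). Klf15, Nr0b2, Prkaa1 and the glucocorticoid receptor Nr3c1 had -0.31 (SE 0.08), -0.33 (SE 0.11), -0.24 (SE 0.09) and -0.15 (SE 0.07). With TMM scaling the groups of 4 of the 28 did not overlap, Klf15 and Nr3c1 among them, beside 4.79% of all tested genes. The coactivator Ppargc1a had -0.27 (SE 0.14) and Foxo1 -0.13 (SE 0.13), neither with an unadjusted p under 0.05.

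Clock genes were read because Pck1 is known to cycle over the day and sampling times are not given in the labels. Of 14 tested, 3 had an unadjusted p under 0.05 by limma, beside 9.69% of all tested genes. Nr1d2 had a lower estimate (log2 fold change -0.29, SE 0.08) and no overlap with TMM scaling, where 4.79% of all tested genes did not overlap. Per2 and Bhlhe41 had higher estimates (0.27, SE 0.10, and 0.97, SE 0.36). On deposited CPM the groups of Nr1d2 overlapped (81.7 to 96.4 in AdGFP, 73.7 to 85.2 in AdNAMPT). The clock output factor Tef had 0.01 (SE 0.06). Its groups overlapped with TMM scaling but not on deposited CPM (192.2 to 221.9 in AdGFP, 226.5 to 233.3 in AdNAMPT). On deposited CPM, 8.22% of tested genes did not overlap. The summed level of this list was 553.4 to 622.6 CPM in AdGFP and 608.5 to 635.7 CPM in AdNAMPT. The part of sampling time in the values of Pck1 was not tested.

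Among markers of other liver cells, 8 of 8 Kupffer cell and macrophage genes had lower estimates in AdNAMPT. Their median log2 fold change was -0.38, and 3 (Clec4f, Vsig4 and Timd4) had an unadjusted p under 0.05, beside 9.69% of all tested genes. The summed level of the 8 markers was 261.6 to 323.3 CPM in AdGFP and 190.0 to 313.9 CPM in AdNAMPT. The 7 hepatocyte markers had a median of -0.11, with 1 at an unadjusted p under 0.05, the secreted protein gene Ahsg (log2 fold change -0.44, SE 0.13, limma adjusted p 0.357). Endothelial, stellate and cholangiocyte lists had medians of 0.08, 0.00 and 0.04. None of the T, B and NK cell markers passed the filter, and of 5 neutrophil and 5 adipocyte markers 2 and 1 did. The part of these cells in the values of the 9 genes was not tested.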

How the data were processed

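Livers of 8 db/db mice, 4 AdGFP and 4 AdNAMPT by sample title, gave 1 RNA-seq library each. The authors aligned reads with STAR (version 2.4.0b in the submitters' processing notes, which also name GRCm38) and ran featureCounts (1.4.5) on reads with 1 unambiguous alignment. The tests used the deposited counts, which are unscaled. The deposited CPM values are counts scaled to the library's total, and the deposited RPKM values are CPM per kilobase of exon; these were used for levels. Ribosomal depletion (labels) and poly-A selection (methods) are both named, and which was used for these libraries was not settled. Gene names came from GENCODE M21, and promoters from RefSeq (GRCm38.p6).

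Following the study, genes annotated as ribosomal RNA and genes not above 1 CPM in at least 3 libraries were left out, and the 12270 remaining were fitted with TMM factors and limma's voomWithQualityWeights, with group as the only term and Benjamini-Hochberg adjustment over all genes. Changed means an adjusted p of at most 0.05. Log2 CPM for permutation tests and correlations used a prior count of 2. Permutation tests are two-sided. The genes and lists were chosen with earlier results of these data known. Named genes were all 9 members; from each list the gene of smallest p and that of highest RPKM; Pkm, Slc37a4, Txnip, Ppargc1a and Foxo1; and the 3 genes most correlated with Pck1. Other genes of the lists with an unadjusted p under 0.05, including Onecut1, Foxa2, Klf10, Klf15, Per2 and Ahsg, were named after their values were seen. Some genes that this rule covers are not reported here.

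Alternatives were 2 edgeR tests (quasi-likelihood and exact), DESeq2's Wald test, unweighted voom, scaling by library size or by DESeq2's size factors, filtering at a mean count of 10 or not at all, the replicate number as a block, and each library left out in turn (requiring 2 libraries above 1 CPM). On simulated counts of 12153 genes for this comparison, the main test recovered 193 of 196 genes changed 3-fold, with 11 other calls. By limma, the estimated folds of the members ran from 0.713 (Pck1) to 1.24 (Pklr). Recovery of changes of that size was not tested. A level of 3 counts corresponds to 0.151 to 0.250 CPM, which covers counting error only. The fits used edgeR 4.0.16, limma 3.58.1 and DESeq2 1.42.0 in R 4.3.3, and the rest scipy 1.17.1 and matplotlib 3.10.9 in Python 3.11.15.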

Additional observations from a re-analysis of the deposited data

How the results depend on the processing

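The 9 genes had 162 alternative values, of which those from the permutation test have no adjusted p. None of the others passed the adjusted threshold, and the lowest adjusted p was 0.192 (Pck1 without AdNAMPT replicate 1). Pck1 stayed lower in all 18 of its alternatives (-0.61 to -0.34; unadjusted p under 0.05 in 11), and Pcx higher in all 18 (0.12 to 0.39; 8). With library size alone, which moved the median of all genes to 0.09, Gckr was at 0.061 and Slc2a2 at 0.077 on the log2 scale. Mlxipl was at -0.027 by edgeR's quasi-likelihood test, -0.028 by its exact test, -0.026 by DESeq2, -0.077 without sample weights, -0.046 without the filter and -0.073 in the permutation test. Leaving out 1 library gave -0.087 to 0.022 for Gckr, -0.041 to 0.029 for Slc2a2, -0.41 to 0.073 for G6pc, -0.11 to 0.15 for Mlxipl, -0.026 to 0.15 for Slc37a4, -0.27 to 0.003 for Foxo1 and -0.010 to 0.027 for Tef. The causes were not tested.

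Across all genes, 34 calls (adjusted p of at most 0.05) became 66 with edgeR's exact test (16 higher, 50 lower) and 75 with DESeq2 (15 higher, 60 lower). The 2 calls higher in AdNAMPT became 1 by quasi-likelihood, 0 without sample weights, 8 with library size alone, 1 without the filter and 4 with the replicate block. Leaving out 1 library gave 28 to 38 calls, 0 to 7 of them higher and 28 to 33 lower. In the lists, Onecut1 was the 1 call among regulators by edgeR's exact test (adjusted p 0.0458) and the 1 call by DESeq2 (adjusted p 0.0151).

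With the replicate number as a block, the glycolysis list held 1 call, and no member was called. Same-numbered mice are different animals. The correlations of their deviations from the group means were 0.23, -0.05, 0.21 and 0.01, beside -0.30 to 0.24 for differently numbered mice. The numbers were not taken to pair the mice, and pairing by litter was not tested. The median of the gluconeogenesis list went from -0.08 to 0.00 with library size alone, and that of the ChREBP list from 0.30 to 0.15 without the filter and 0.16 without sample weights. Leaving out 1 library gave 0.40 to 1.08 for Rgs16, 0.74 to 1.71 for Scd1, 0.18 to 0.47 for Dlat, 0.14 to 0.40 for Txnip, -0.93 to -0.38 for Akr1b3 and -0.46 to -0.13 for Phkg2. Every member had at least 723 counts in each library.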
